A study of Mus musculus with 2 samples.

Results

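Genes of DNA replication and mitosis were followed in the embryonic mouse midbrain. The 50 members were the genes of a list of replication and cell-division genes, found by their Ensembl identifier among the 43346 genes of the deposited tables. All 50 were present. They were split by name into 25 S phase genes (Mcm, Pcna, Rrm, Tyms, Gins, DNA polymerase, Cdc6, Cdc45, Cdt1, Gmnn, Orc, E2f and Ccne genes) and 25 G2/M genes (the remainder). The split goes by gene names and uses no measured value.

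Total RNA over 200 nt long was sequenced from midbrain of B6NCrl embryos at 13.5 days. There was 1 group of 2 libraries, numbered by the labels as biological replicates 2 and 1, each from a separate biosample of healthy, pooled male and female tissue, both tied to 1 donor entry. Spike-in RNA was added, and 10 ng of RNA went into each library. No treatment, mutant, second age or second tissue was measured, so levels are described and no comparison could pass a test: an exact permutation test on 2 libraries cannot give a p below 0.5. Replicate 2 held 41915240 expected reads and replicate 1 held 32151659, of which 4.06% in replicate 2 and 2.22% in replicate 1 fell on spike-ins. The midbrain label was checked on regional genes. Otx2, of forebrain and midbrain, stood at 117 TPM (a level per transcript length) in replicate 2 and 104 TPM in replicate 1, En1, of midbrain and anterior hindbrain, at 10.6 TPM in replicate 2 and 7.35 TPM in replicate 1, and the hindbrain gene Hoxa2 at 0.05 TPM in replicate 2 and 0.13 TPM in replicate 1.

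A dividing cell copies its genome once in S phase and separates the copies in mitosis. Before S phase the origin recognition complex, with CDC6 and CDT1, loads the ring of MCM proteins onto DNA, and CDC45 and the GINS proteins turn that ring into the running helicase. After S phase the kinase CDK1 with cyclin B drives entry into mitosis, condensins and topoisomerase II shape the chromosomes, and the anaphase-promoting complex ends mitosis by marking cyclin B and securin for destruction. Many S phase genes are known targets of E2F transcription factors, and many G2/M genes are known targets of the DREAM and B-MYB-MuvB complexes, which bind the cell cycle homology region (CHR) of a promoter. In the midbrain at this age the cells that divide are known to be mainly the progenitors that line the ventricle, while neurons have left the cycle.

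The promoter sequences of the members held different short words in the 2 classes. RefSeq promoter windows of assembly GRCm38.p6, which run from 250 bases before to 50 bases after a transcript start, were matched by symbol for 39 of 50 members, 19 of 25 S phase genes and 20 of 25 G2/M genes. A gene with several windows was counted once if any window held the word. Ccna2, Ccne2, Aurkb, Cdc25c, Gins1, Gins2, Gmnn, Mcm4, Pole, Smc4 and Tpx2 had no window matched. An E2F word was TTCCCGC (a match to the E2F consensus) or one of its variants, which were TTGGCGC and also TTCGCGC and lastly TTGCCGC, on either strand. A CHR word was TTTGAA or its variant TTCGAA on either strand. E2F words stood in 12 of 19 S phase genes (63.2%) and in 5 of 20 G2/M genes (25%), against 19.6% of 10111 detected protein-coding genes with a window and 10.9% of all 27025 genes with a window. CHR words ran the other way. They stood in 4 of 19 S phase genes (21.1%) and in 16 of 20 G2/M genes (80%), against 15.8% of detected protein-coding genes and 21.7% of all genes with a window. A word match is a description of letters and not a bound site, and a window without a match shows only that these letters are absent from it.

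The windows below show both patterns. Mcm6, a subunit of the replicative helicase, and Pola1, the catalytic subunit of DNA polymerase alpha, are printed for their several E2F words, which are in capitals. Cdk1, the mitotic kinase, is printed because it held words of both classes, also in capitals. All are given 5′ to 3′ on the strand of the gene, with the transcript start 250 bases into the run.
Mcm6 (chr1:128359656-128359955, minus strand): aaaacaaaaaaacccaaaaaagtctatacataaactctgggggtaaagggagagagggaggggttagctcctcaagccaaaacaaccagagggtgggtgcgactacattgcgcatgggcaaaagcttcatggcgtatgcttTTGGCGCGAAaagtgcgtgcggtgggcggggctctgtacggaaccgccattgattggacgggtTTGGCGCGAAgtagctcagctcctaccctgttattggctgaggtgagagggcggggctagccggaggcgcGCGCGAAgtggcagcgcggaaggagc
Pola1 (chrX:93632106-93632405, minus strand): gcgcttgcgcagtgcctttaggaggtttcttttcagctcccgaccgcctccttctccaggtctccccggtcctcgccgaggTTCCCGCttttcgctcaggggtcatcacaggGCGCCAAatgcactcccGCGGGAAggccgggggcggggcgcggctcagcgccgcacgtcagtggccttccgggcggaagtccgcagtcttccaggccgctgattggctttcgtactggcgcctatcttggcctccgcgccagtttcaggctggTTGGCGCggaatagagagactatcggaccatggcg
Cdk1 (chr10:69352863-69353162, minus strand): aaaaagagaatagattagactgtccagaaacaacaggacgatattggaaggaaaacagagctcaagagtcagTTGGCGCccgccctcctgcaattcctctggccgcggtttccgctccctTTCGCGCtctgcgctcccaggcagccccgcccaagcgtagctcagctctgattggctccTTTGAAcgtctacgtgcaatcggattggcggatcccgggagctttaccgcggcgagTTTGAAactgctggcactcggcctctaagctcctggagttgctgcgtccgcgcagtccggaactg

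In Mcm6 the E2F words began at positions -109, -106, -46, -43 and 25 relative to the transcript start, where the first transcribed base is 1. The 10-letter runs TTGGCGCGAA at -109 and -46 each hold a TTGGCGC that overlaps TTCGCGC on the opposite strand, so the 5 matches lie in only 3 stretches. Pola1 held E2F words at -169, -138, -121 and 16. Cdk1 held E2F words at -178 and -130 and CHR words at -71 and -15. The other members with both classes were E2f2 and Mcm7 among S phase genes and Mki67, Ncapd2 and Ncapg among G2/M genes. In E2f2 the E2F word and the CHR word lay in different windows. Both classes were held by 6 of 39 members (15.4%), against 3.16% of detected protein-coding genes with a window.

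The G2/M pattern was a CHR word close to the start, often with CCAAT words upstream of it. Windows from 100 bases before to 50 bases after the start are printed for Ccnb2 (cyclin B2), Cdc20 (an activator of the anaphase-promoting complex) and the checkpoint kinases Bub1 and Ttk, with CHR words in capitals. In Ttk the capitals show the word on the opposite strand, where it reads TTTGAA.
Ccnb2 (chr9:70421505-70421654, minus strand): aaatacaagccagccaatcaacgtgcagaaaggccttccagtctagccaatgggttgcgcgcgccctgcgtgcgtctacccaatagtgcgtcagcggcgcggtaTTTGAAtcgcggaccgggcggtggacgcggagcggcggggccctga
Cdc20 (chr4:118437294-118437443, minus strand): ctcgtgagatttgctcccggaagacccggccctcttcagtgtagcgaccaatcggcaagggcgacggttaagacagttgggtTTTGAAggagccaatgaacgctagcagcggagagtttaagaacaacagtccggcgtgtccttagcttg
Bub1 (chr2:127831810-127831959, minus strand): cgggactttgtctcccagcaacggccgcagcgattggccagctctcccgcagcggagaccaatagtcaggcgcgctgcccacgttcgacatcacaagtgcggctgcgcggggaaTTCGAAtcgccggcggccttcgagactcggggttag
Ttk (chr9:83834589-83834738, plus strand): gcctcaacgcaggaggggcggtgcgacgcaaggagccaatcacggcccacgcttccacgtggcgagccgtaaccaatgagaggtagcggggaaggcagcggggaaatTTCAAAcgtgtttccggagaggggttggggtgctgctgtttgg

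In this shorter stretch a CHR word stood in 3 of 19 S phase genes (15.8%) and in 15 of 20 G2/M genes (75%), against 6.52% of detected protein-coding genes with a window. CCAAT words were also searched on either strand. Ccnb2 had a CHR word at 5 and CCAAT words on the strand of the gene at -87, -54 and -21, evenly spaced. Cdc20 had its CHR word at -18, Bub1 at 15 and Ttk at 8. In the whole windows, CCAAT words stood in 13 of 19 S phase genes (68.4%) and in 18 of 20 G2/M genes (90%), against 43.4% of detected protein-coding genes. In the shorter stretch they stood in 12 of 19 S phase genes (63.2%) and in 14 of 20 G2/M genes (70%), against 29.8%, so the classes were closer there. Birc5 and Nusap1, both G2/M genes, held neither a CHR nor a CCAAT word in the whole window. The TATAAA word was found in the whole window of 1 S phase gene and of 0 G2/M genes, against 8.45% of detected protein-coding genes. The base composition of the whole windows was similar, with a median GC content of 59.3% in S phase genes, 58.3% in G2/M genes and 61.3% in detected protein-coding genes. No test was made of these shares.

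**Figure D1:**
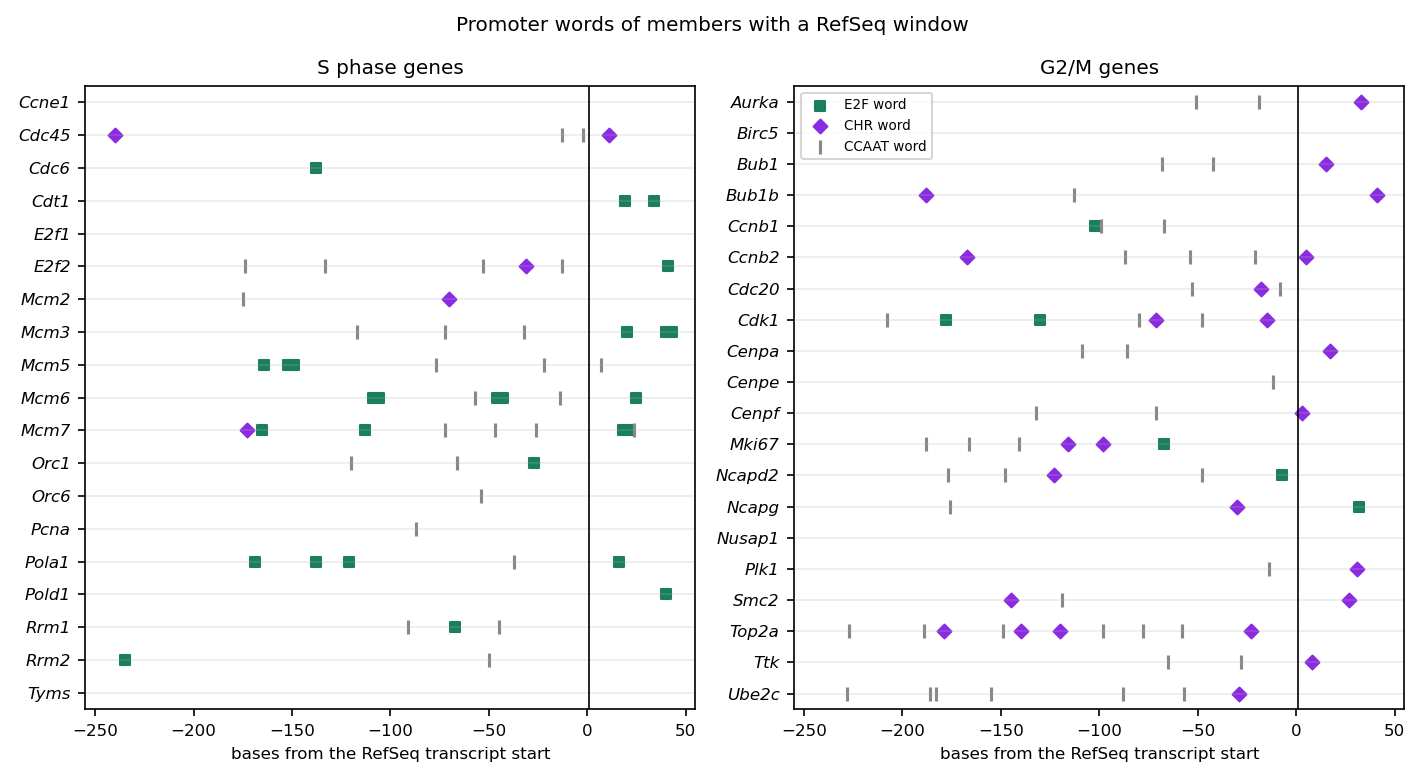
Positions of E2F words (squares), CHR words (diamonds) and CCAAT words (grey ticks) in the windows of the 19 S phase genes and 20 G2/M genes, in bases from the RefSeq transcript start (vertical line), with all windows of a gene drawn on 1 line. Squares fill the left panel in 12 genes, diamonds fill the right panel in 16 genes, and Ccne1, E2f1, Tyms, Birc5 and Nusap1 held no such word.

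All 50 members were detected, that is, at 1 TPM or more in both libraries. The same held for 60.2% of 21474 protein-coding genes. A mean of 10 TPM or more was reached by 46 of 50 members, against 40.7% of protein-coding genes, and 100 TPM or more by 5 members, against 7.48%. The median member stood at 37.5 TPM in replicate 2 and 41.5 TPM in replicate 1, against medians of 19.6 TPM in replicate 2 and 19.9 TPM in replicate 1 over detected protein-coding genes. Together the members held 0.269% of gene TPM in replicate 2 and 0.274% in replicate 1. In a bulk sample, a larger share of dividing cells and more RNA per dividing cell cannot be told apart.

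Among the members, S phase genes stood below G2/M genes in both libraries. The S phase median was 33.1 TPM and the G2/M median 48.0 TPM in replicate 2, and in replicate 1 the S phase median was 35.9 TPM and the G2/M median 51.3 TPM. On the log2(TPM + 0.1) scale the medians differed by -0.52 ± 0.01 (S phase minus G2/M, SD, n = 2), or 1.44-fold lower in S phase. The classes overlapped widely. S phase genes ranged from 2.97 to 126 TPM and G2/M genes from 10.8 to 162 TPM in replicate 2, and the 4 members with a mean under 10 TPM, Cdc6, Pola1, E2f2 and Orc1, were all S phase genes. The size of the difference depended on the transcript length used. With the length of each gene's longest coding transcript in place of the deposited length it was -0.27.

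**Figure D2:**
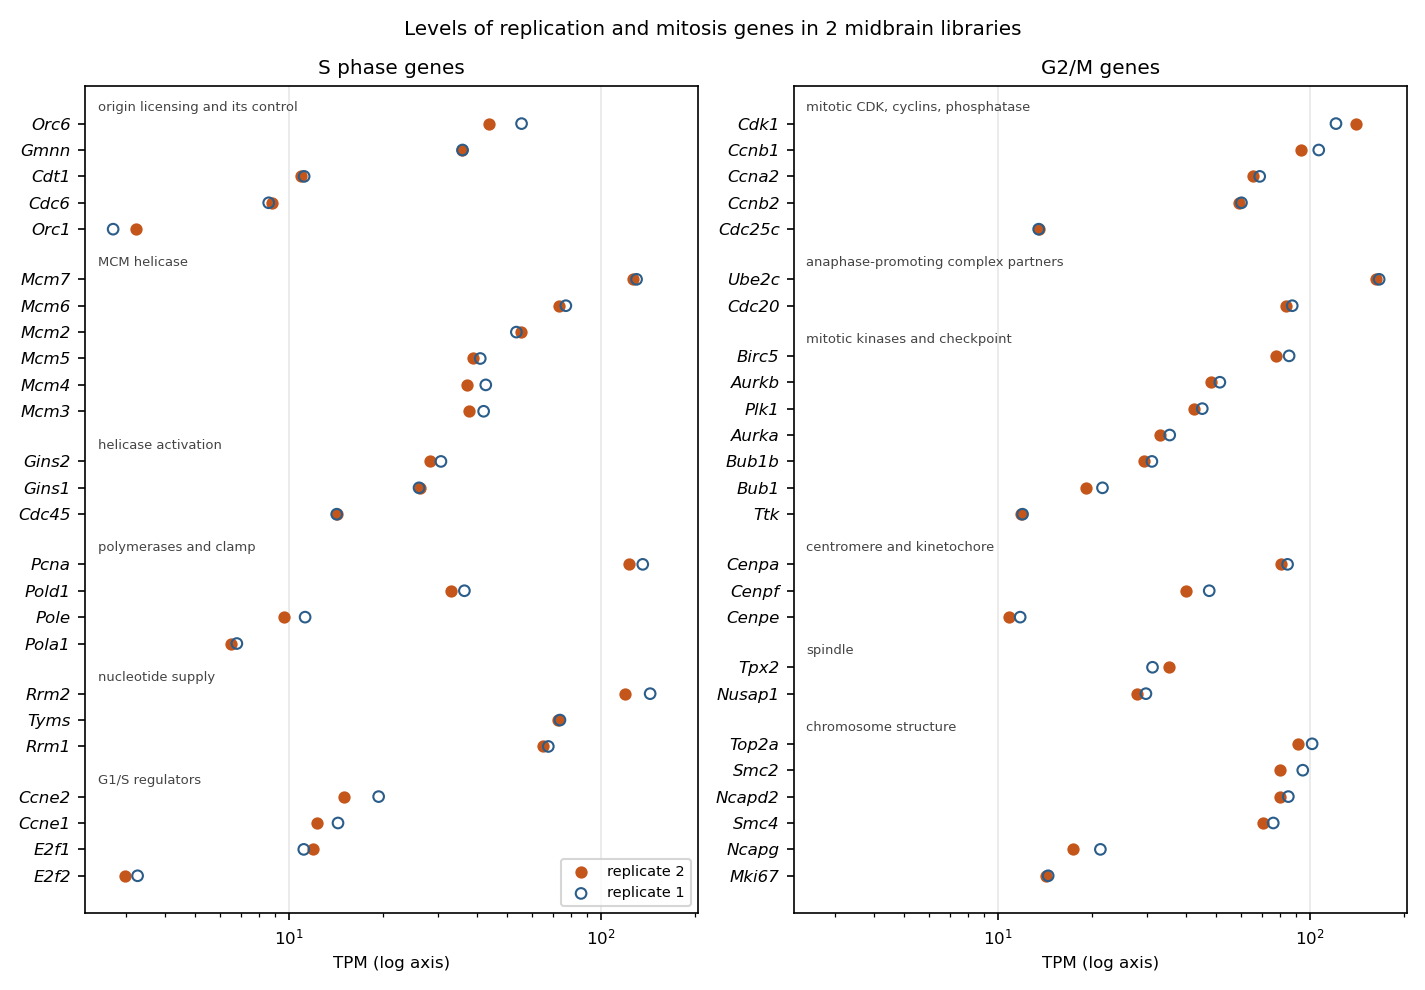
TPM of each member in replicate 2 (filled) and replicate 1 (open) on a log axis, S phase genes left and G2/M genes right, grouped by role. Levels ran from about 3 TPM (Orc1, E2f2) to about 160 TPM (Ube2c), and within nearly every member the libraries lay close together compared with the range among members.

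Origin licensing genes were at uneven levels. Orc6, the smallest subunit of the origin recognition complex, stood at 43.8 TPM in replicate 2 and 55.5 TPM in replicate 1. Gmnn, whose product geminin blocks CDT1 outside G1, stood at 35.7 TPM in replicate 2 and 35.9 TPM in replicate 1. Orc1 (chromosome 4, 108579423 to 108614833) is the largest subunit of the same complex as Orc6. It was the lowest member by mean, at 3.24 TPM in replicate 2 and 2.73 TPM in replicate 1. These levels came from 217 reads in replicate 2 and 134 in replicate 1. The range of Orc1 overlapped that of E2f2, so they cannot be put in order. By the deposited posterior mean, Orc1 had 4.29 TPM in replicate 2 and 4.42 TPM in replicate 1. On that scale it lay above E2f2, at 3.15 TPM in replicate 2 and 3.52 TPM in replicate 1. Between Gmnn and Orc1 were Cdt1, at 10.9 TPM in replicate 2 and 11.2 TPM in replicate 1, and Cdc6, at 8.84 TPM in replicate 2 and 8.60 TPM in replicate 1. Both load the MCM ring. The ORC6 and ORC1 proteins share a complex, yet their RNA levels lay far apart in both libraries.

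The 6 MCM subunits, which form 1 ring with a single copy of each, were not at 1 level. Mcm7 (GRCm38 chromosome 5, 138164583 to 138172422) was highest, at 126 TPM in replicate 2 and 130 TPM in replicate 1. Mcm6 followed at 73.3 TPM in replicate 2 and 77.0 TPM in replicate 1, and Mcm2 at 55.4 TPM in replicate 2 and 53.5 TPM in replicate 1. These 3 kept their order in both libraries, with no overlap. Mcm5 stood at 38.9 TPM in replicate 2 and 41.0 TPM in replicate 1. Mcm4 stood at 37.2 TPM in replicate 2 and 42.7 TPM in replicate 1, and Mcm3 at 37.8 TPM in replicate 2 and 42.0 TPM in replicate 1. The ranges of Mcm5, Mcm4 and Mcm3 overlapped, so they cannot be put in order. The highest mean was 3.21 times the lowest, with 3.40 times in replicate 2 and 3.17 times in replicate 1. Per length of the longest coding transcript the ratio was 2.80, Mcm7 still led at 112 TPM, and Mcm2 (63.9 TPM) then lay above Mcm6 (59.5 TPM). That scale rescales all genes, so the value of Mcm2 rose although its length was unchanged. Mcm7 overlaps 64 bases of Cops6, a signalosome subunit gene on the other strand at 263 TPM in replicate 2 and 258 TPM in replicate 1, and 421 bases of Ap4m1, an adaptor protein gene at 21.6 TPM in replicate 2 and 24.3 TPM in replicate 1. The sources used here do not say if strand entered the counting, so reads of genes that overlap on opposite strands may be mixed. Of the 50 members, 25 overlap an annotated gene, and 11 overlap one at 1 TPM or more in both libraries.

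Of the genes that start the helicase, Gins2 stood at 28.4 TPM in replicate 2 and 30.6 TPM in replicate 1. Its partner Gins1 had 26.2 TPM in replicate 2 and 26.1 TPM in replicate 1. This order turned per length of the longest coding transcript, where Gins2 had 16.1 TPM and Gins1 29.7 TPM. Cdc45, the third component of the active helicase, stood at 14.3 TPM in replicate 2 and 14.2 TPM in replicate 1, and at 15.3 TPM per length of the longest coding transcript. Cdc45 shares 209 bases with Ufd1, a gene of protein turnover on the other strand (82.9 TPM in replicate 2, 95.7 TPM in replicate 1). Gins2 shares 2758 bases with the other-strand gene Gse1 (13.5 TPM in replicate 2, 11.5 TPM in replicate 1) and lies whole within the span of the annotated gene Gm20388 (5.05 TPM in replicate 2, 9.95 TPM in replicate 1), as does Cdt1, which lies on the strand of Gm20388.

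Among the polymerases and their clamp, Pcna, the sliding clamp, stood far above the enzymes it holds. It had 122 TPM in replicate 2 and 136 TPM in replicate 1. Pold1, the catalytic subunit of polymerase delta, had 33.1 TPM in replicate 2 and 36.4 TPM in replicate 1, and Pole, that of polymerase epsilon, 9.64 TPM in replicate 2 and 11.3 TPM in replicate 1. Per length of the longest coding transcript, Pole had 5.77 TPM. Pola1, whose promoter carried 4 E2F words, was the lowest of the role on the deposited scale at 6.53 TPM in replicate 2 and 6.80 TPM in replicate 1. The pseudogene Pcna-ps2 was listed at 0.96 TPM in replicate 2 and 1.70 TPM in replicate 1 and Pcna-ps1 at 0 in both. These copies were found by name and held few reads next to Pcna. Copies under other names were not looked for.

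The nucleotide supply genes stood above the median member on the deposited scale. Rrm2, the regulatory subunit of ribonucleotide reductase, stood at 120 TPM in replicate 2 and 143 TPM in replicate 1. Rrm1, its large subunit, had 64.9 TPM in replicate 2 and 67.7 TPM in replicate 1. Tyms, thymidylate synthase, had 72.5 TPM in replicate 2 and 73.7 TPM in replicate 1, but 37.2 TPM per length of the longest coding transcript. By contrast, the regulators of S phase entry were low. Ccne2 (cyclin E2) had 15.0 TPM in replicate 2 and 19.4 TPM in replicate 1, and Ccne1 (cyclin E1) 12.3 TPM in replicate 2 and 14.3 TPM in replicate 1. The transcription factor gene E2f1 lay at 11.9 TPM in replicate 2 and 11.1 TPM in replicate 1, while E2f2 lay at 2.97 TPM in replicate 2 and 3.27 TPM in replicate 1.

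Among the G2/M genes, Ube2c (chromosome 2, 164769898 to 164778822) had the highest deposited level of all members. It encodes a ubiquitin-conjugating enzyme of the anaphase-promoting complex and stood at 162 TPM in replicate 2 and 166 TPM in replicate 1 (164 ± 2.73, SD, n = 2). Its rank depended on length. A transcript of 967 nt held 99.8% of its abundance in replicate 2 and 99.7% in replicate 1, and per length of its longest coding transcript (2191 nt) it had 80.3 TPM. On that scale Rrm2 (148 TPM) and Pcna (147 TPM) were the highest members. Cdc20, whose promoter is printed above, had 83.4 TPM in replicate 2 and 87.6 TPM in replicate 1. It shares 53 bases with Elovl1, a fatty acid elongase gene on the other strand at 20.2 TPM in replicate 2 and 21.2 TPM in replicate 1.

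The kinase gene Cdk1 (chromosome 10, 69335146 to 69352938) had the highest deposited level of the CDK and cyclin genes, with 141 TPM in replicate 2 and 121 TPM in replicate 1. Ccnb1 (cyclin B1) had 93.2 TPM in replicate 2 and 106 TPM in replicate 1, Ccna2 (cyclin A2) 65.6 TPM in replicate 2 and 68.9 TPM in replicate 1, and Ccnb2 59.3 TPM in replicate 2 and 60.2 TPM in replicate 1. The ranges of these 4 did not overlap on the deposited scale. The place of Cdk1 depended on the transcript length used: per length of the longest coding transcript it had 43.3 TPM, below Ccnb1 (111 TPM), Ccna2 (77.6 TPM) and Ccnb2 (70.2 TPM). Cdc25c, the phosphatase that activates CDK1, was the lowest of the role at 13.6 TPM in replicate 2 and 13.5 TPM in replicate 1. Cdc25c covers the whole of Gm3550, annotated on the other strand (3.42 TPM in replicate 2, 3.35 TPM in replicate 1), and Ccna2 shares 863 bases with the exosome gene Exosc9 (74.7 TPM in replicate 2, 82.7 TPM in replicate 1). The pseudogene Ccnb2-ps stood at 4.12 TPM in replicate 2 and 3.6 TPM in replicate 1, and Ccnb1-ps at 0.51 TPM in replicate 2 and 0.53 TPM in replicate 1, both far below their parent genes.

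The mitotic kinases and checkpoint genes were spread over a wide range. Birc5 (survivin), a subunit of the chromosomal passenger complex, had the highest deposited level, with 77.4 TPM in replicate 2 and 85.6 TPM in replicate 1. Per length of the longest coding transcript it had 27.3 TPM, below Plk1 (51.4 TPM), Aurkb (51.1 TPM), Aurka (38.9 TPM) and Bub1b (34.8 TPM). Aurkb, the kinase of that complex, had 48.0 TPM in replicate 2 and 51.3 TPM in replicate 1. Ttk (MPS1), a kinase of the spindle checkpoint, was lowest at 11.8 TPM in replicate 2 and 12.0 TPM in replicate 1. Plk1, Aurka, Bub1b and Bub1 lay between these, in that order of their means, with 42.5, 32.9, 29.3 and 19.1 TPM in replicate 2 beside 45.1, 35.5, 31.1 and 21.6 TPM in replicate 1.

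The centromeric histone gene Cenpa had 80.7 TPM in replicate 2 and 84.6 TPM in replicate 1. The kinetochore genes stood lower, with Cenpf at 39.9 TPM in replicate 2 and 47.5 TPM in replicate 1 and the motor protein gene Cenpe at 10.8 TPM in replicate 2 and 11.8 TPM in replicate 1. Per length of the longest coding transcript, Cenpf had 15.0 TPM and Cenpe 13.3 TPM. Of the spindle genes, Tpx2, an activator of Aurora A, had 35.4 TPM in replicate 2 and 31.2 TPM in replicate 1. Nusap1, a microtubule-binding protein gene, had 27.8 TPM in replicate 2 and 29.8 TPM in replicate 1 and shares 172 bases with the other-strand gene Oip5, a centromere gene at 9.85 TPM in replicate 2 and 11.04 TPM in replicate 1.

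The chromosome structure genes included Top2a, topoisomerase II alpha, at 91.4 TPM in replicate 2 and 101 TPM in replicate 1. Mki67, which encodes the proliferation marker Ki-67 and coats mitotic chromosomes, was low at 14.2 TPM in replicate 2 and 14.5 TPM in replicate 1. Of the 4 condensin subunits, Smc2 had 79.9 TPM in replicate 2 and 94.6 TPM in replicate 1, and its partner in the ATPase pair, Smc4, had 70.7 TPM in replicate 2 and 76.1 TPM in replicate 1. The condensin I subunit genes differed from each other, with Ncapd2 at 79.8 TPM in replicate 2 and 85.1 TPM in replicate 1 and Ncapg at 17.4 TPM in replicate 2 and 21.3 TPM in replicate 1. The highest mean was 4.51 times the lowest. This spread depended on the transcript length used. Per length of the longest coding transcript it was 2.56. On that scale Ncapd2 led with 57.6 TPM and Smc4 (36.3 TPM) lay above Smc2 (26.7 TPM), whose range overlapped that of Ncapg (22.5 TPM). As deposited, the ranges of Smc2 and Ncapd2 overlapped, so they cannot be put in order there.

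**Figure D3:**
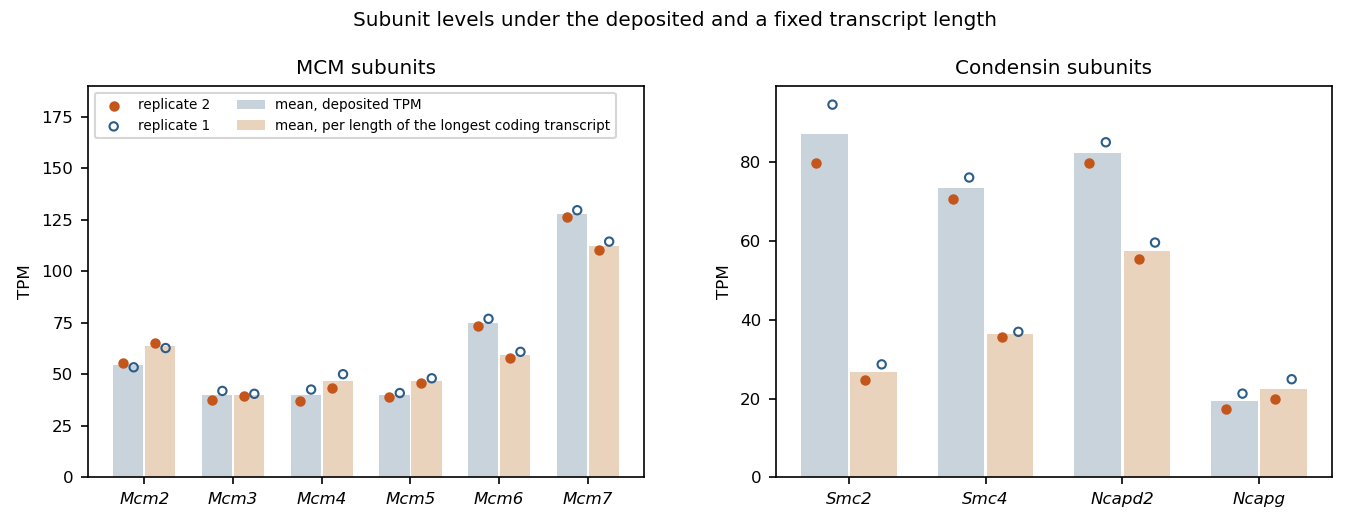
TPM of the 6 MCM subunits (left) and 4 condensin subunits (right), as deposited (grey bars) and per length of the longest coding transcript (tan bars). Bars are means and points are replicate 2 (filled) and replicate 1 (open). Mcm7 leads on both scales, whereas Smc2 and Ncapd2 overlap as deposited and Smc2 is below Ncapd2 on the fixed length.

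Most neighbours in the order of all 50 levels could not be separated. Ranked by mean TPM, 32 of 49 neighbouring pairs had library ranges that overlapped and 17 did not. On the deposited scale Ube2c stood clear of the next member, Rrm2. Rrm2, Cdk1, Pcna and Mcm7 overlapped as a chain from one to the next, and a gap separated Mcm7 from Ccnb1 below it.

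The transcript tables give the lengths behind these levels. The leading transcript of a gene is the one to which the deposited tables give the highest percent of its abundance. Of the members, 38 had at least 2 annotated transcripts and 5 TPM, and 38 of 38 had the same leading transcript in both libraries, against 92.8% of 7761 protein-coding genes of that kind. A further 10 members had 1 transcript and 2 were under 5 TPM. The leading transcript was not annotated as protein-coding in 4 of 38 members, against 8.44% of those genes. It was shorter than 50% of the longest coding transcript in 8 of 38 (Ube2c, Birc5, Cdk1, Tyms, Cenpf, Smc2, Gins2 and Smc4), against 11.9%. The median share of abundance on protein-coding transcripts was 91.2% in replicate 2 and 93.3% in replicate 1 for members, against 90.2% in each library for all such genes.

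Smc2 shows the pattern most plainly. Its leading transcript was a processed transcript of 643 nt, with 57.2% of the abundance in replicate 2 and 57.6% in replicate 1. By reads the picture differed: the 5404 nt coding transcript held 58.2% of Smc2 reads in replicate 2 and 55.4% in replicate 1, and the 643 nt transcript 22.3% in replicate 2 and 22.9% in replicate 1. In Smc4 a coding transcript of 1163 nt led with 58.0% of abundance in replicate 2 and 58.4% in replicate 1, while the longest coding transcript, of 4316 nt, held 5.05% in replicate 2 and 1.03% in replicate 1. The largest share of Smc4 reads went to a 4057 nt transcript annotated for nonsense-mediated decay, with 50.7% in replicate 2 and 51.2% in replicate 1. Gins2 was led by a retained-intron transcript of 511 nt (57.0% in replicate 2, 56.6% in replicate 1), which held 13.1% of its reads in replicate 2 and 13.4% in replicate 1. Tyms was led by a 797 nt transcript annotated for nonsense-mediated decay, with 41.6% of abundance in replicate 2 and 39.6% in replicate 1. Its coding transcript of 3163 nt had 8.79% in replicate 2 and 10.6% in replicate 1. By reads that transcript held 20.7% in replicate 2 and 24.1% in replicate 1. The largest share of Tyms reads, 27.5% in replicate 2 and 26.2% in replicate 1, went to a 2045 nt retained-intron transcript. Cenpa, too, was led by a transcript annotated for nonsense-mediated decay, at 42.3% in replicate 2 and 46.3% in replicate 1. A coding transcript of 1354 nt followed, at 36.5% in replicate 2 and 36.3% in replicate 1. By reads the coding one held 42.1% in replicate 2 and 41.4% in replicate 1, beside 40.9% in replicate 2 and 44.3% in replicate 1 for the leading one. In Cenpf a 3001 nt coding transcript led with 43.7% of abundance in replicate 2 and 42.8% in replicate 1, whereas 55.9% of reads in replicate 2 and 50.8% in replicate 1 went to the 11130 nt coding transcript. These divisions are estimates by the authors' quantification, and no junction reads were analysed here.

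**Figure D4:**
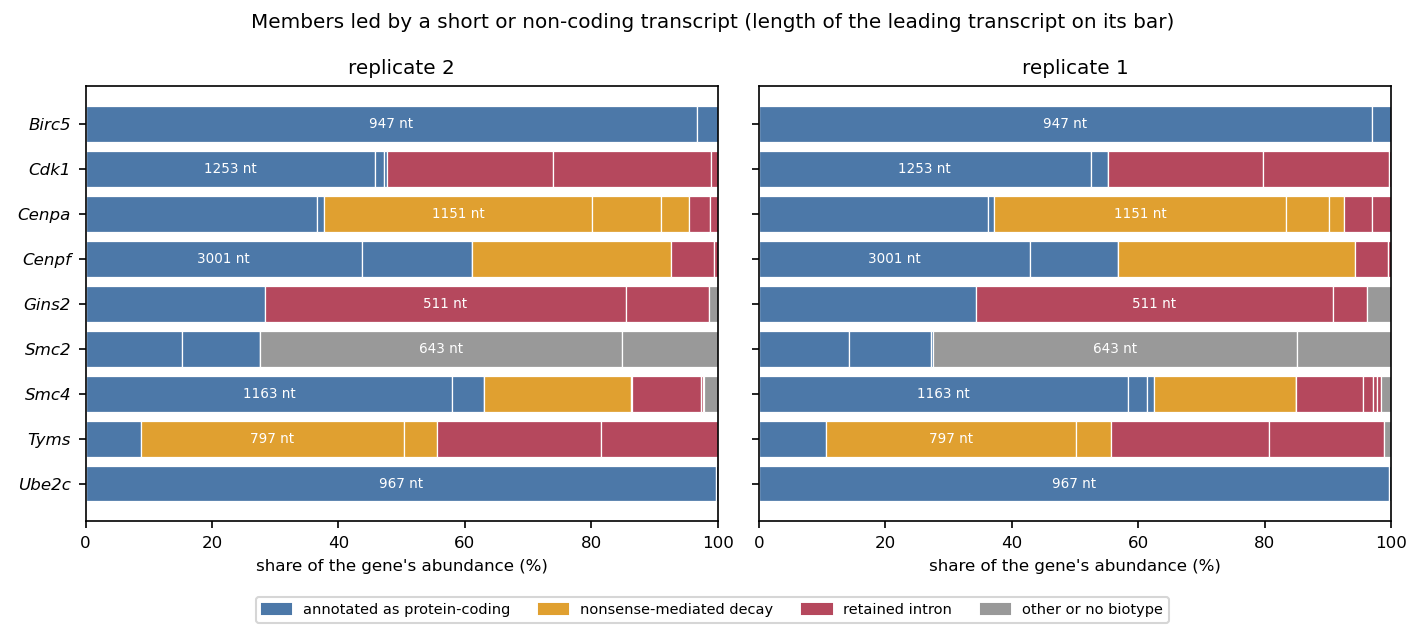
Share of each gene's abundance (percent) by transcript in replicate 2 (left) and replicate 1 (right), for the 9 members led by a short or non-coding transcript. Segments are transcripts, coloured by annotation, and the label gives the length of the leading one; its share was alike in both libraries, for example 57.2% in replicate 2 and 57.6% in replicate 1 for Smc2.

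The replicates differed little in the members. Expected counts, rounded to whole numbers, were scaled by TMM over all genes, and ratios were taken as replicate 2 over replicate 1 in the 14361 genes whose mean count reached 50, all 50 members among them. The log2 ratio was 0.32 or more in either direction, a ratio about 25% above 1 or its inverse, in 2 of 50 members, against 11.9% of genes. A 2-fold ratio was reached by 0 members, against 0.724% of genes. Of 12686 detected protein-coding genes with that mean count, 1124 passed 0.32 and 44 passed 2-fold. These backgrounds hold genes with fewer reads than most members, and no background at the read counts of the members is given. Ccne2 (chromosome 4, 11191351 to 11204779) was the member past the 0.32 threshold and lower in replicate 2, as were 4.21% of genes. It had 1076 reads in replicate 2 and 1078 in replicate 1. Its log2 ratio was -0.37, with a 95% interval of the ratio of 0.709 to 0.841. Ccne2 shares 5622 bases with the other-strand gene Ints8, a subunit of the Integrator complex, whose level was 46.2 TPM in replicate 2 and 41.4 TPM in replicate 1. Orc1 was higher in replicate 2, by 0.32 on the log2 scale with an interval of the ratio of 1.01 to 1.57, against 7.65% of genes that were higher past the threshold. By posterior mean, Orc1 was not higher in replicate 2, with 4.29 TPM there and 4.42 TPM in replicate 1. The intervals are exact (Clopper-Pearson). They cover counting error only, and since no molecular identifiers are given the reads may not be independent.

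More members were lower than higher in replicate 2, by small amounts. The scaled count was lower in replicate 2 for 34 of 50 members, 16 of 25 S phase genes and 18 of 25 G2/M genes, against 49.1% of all genes. The median log2 ratio was -0.024 in S phase genes and -0.036 in G2/M genes. After Ccne2, the lowest ratios were those of Orc6 (-0.29), Ncapg (-0.27) and Rrm2 (-0.22). Orc6 shares 171 bases with Vps35, a retromer gene at 144 TPM in replicate 2 and 157 TPM in replicate 1, and Ncapg shares 3366 bases with Lcorl, at 43.2 TPM in replicate 2 and 52.0 TPM in replicate 1. Cdk1, on the other side, was higher in replicate 2 by 0.12, with a ratio interval of 1.02 to 1.15. Scaling to the spike-ins gave another answer: spike-in reads were 2.38 times as many in replicate 2, whereas the TMM scale was 1.29 times as large. Scaled to spike-in totals, the median log2 ratio was -0.90 in S phase genes and -0.92 in G2/M genes, and 50 of 50 members passed the 0.32 threshold. This scale lowers the log2 ratio of every gene by the same amount, so that count follows from the scale. It is not particular to the members, and the share of all genes past the threshold on this scale is not given here. TPM values of replicate 2 are lowered for every gene by the larger spike-in share, 9.39% of all TPM in replicate 2 and 5.36% in replicate 1.

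**Figure D5:**
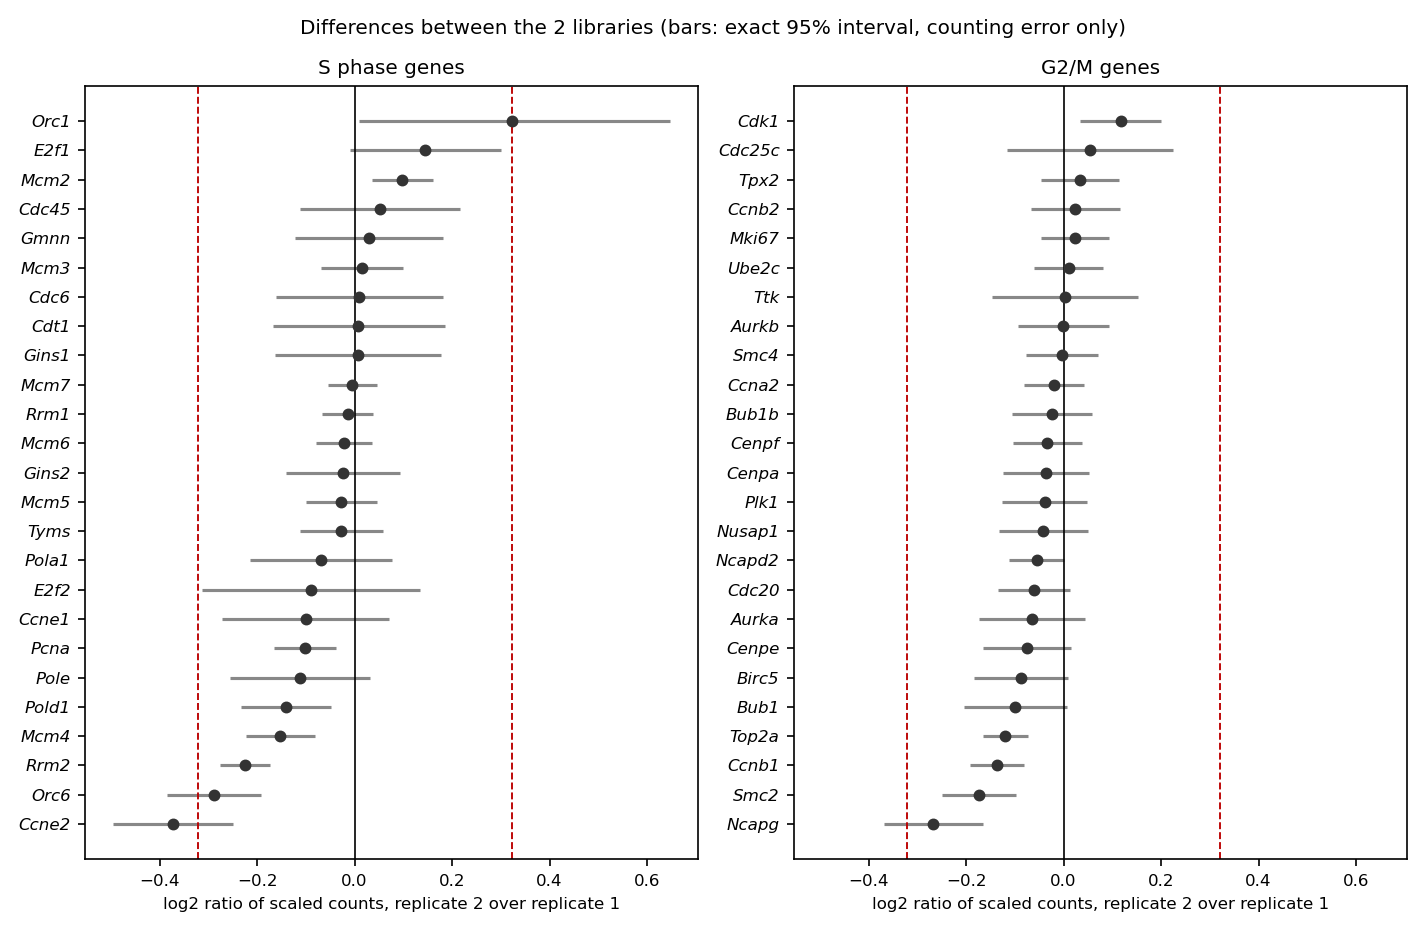
log2 ratio of scaled counts, replicate 2 over replicate 1, for each member, with exact 95% intervals that cover counting error only. Dashed lines mark 0.32 in each direction; Ccne2 lies past the lower line, Orc1 just past the upper one, and the other members between them.

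Markers of the cell types in the tissue differed between the replicates by similar or larger amounts. The summed level of 10 progenitor markers was 2219 TPM in replicate 2 and 2297 TPM in replicate 1, with 10 of 10 detected and a median log2 ratio of 0.11. Fabp7 was the largest part of that sum, at 1013 TPM in replicate 2 and 1130 TPM in replicate 1. By scaled count 7 of the 10 progenitor markers were higher in replicate 2 and 3 were lower. The summed level of 10 neuronal markers was 3999 TPM in replicate 2 and 4411 TPM in replicate 1, with 10 of 10 detected and a median log2 ratio of -0.06. Meningeal and mesenchymal markers (9 of 10 detected) summed to 348 TPM in replicate 2 and 284 TPM in replicate 1 with a median of 0.18, and endothelial markers (10 of 10 detected) to 232 TPM in replicate 2 and 216 TPM in replicate 1 with a median of 0.14. Microglia and macrophage markers (9 of 10 detected) summed to 116 TPM in replicate 2 and 105 TPM in replicate 1, and pericyte and smooth muscle markers (8 of 10 detected) to 160 TPM in replicate 2 and 137 TPM in replicate 1, with medians of 0.19 for microglia and macrophage markers and 0.15 for pericyte and smooth muscle markers. Erythroid markers, led by the globin Hba-a2 at 4951 TPM in replicate 2 and 4782 TPM in replicate 1, had 8 of 10 detected, a sum of 12705 TPM in replicate 2 and 12250 TPM in replicate 1 and a median of 0.12, with Klf1 and Gata1 under 1 TPM in both libraries. No marker of these 7 lists was at 0 in both libraries. Any of these cell types may hold dividing cells, and their part in the levels of the members was not tested.

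Other genes of both processes were also detected throughout. Of 40 other replication genes, 40 were detected and 36 reached a mean of 10 TPM. Their median was 37.4 TPM in replicate 2 and 40.4 TPM in replicate 1, near the median of all members. The S phase members had lower medians, 33.1 TPM in replicate 2 and 35.9 TPM in replicate 1. Slbp, which binds the stem-loop of histone mRNAs, was highest at 116 TPM in replicate 2 and 127 TPM in replicate 1, ahead of the clamp loader gene Rfc2 at 97.2 TPM in replicate 2 and 104 TPM in replicate 1 and of Orc4 at 86.8 TPM in replicate 2 and 94.0 TPM in replicate 1. Orc4 belongs to the same complex as Orc1 and Orc6 and stood above both. Of 44 other mitosis genes, 44 were detected and 38 reached a mean of 10 TPM. Their median was 24.6 TPM in replicate 2 and 25.6 TPM in replicate 1, below the G2/M members. In these wider lists the replication genes stood above the mitosis genes by median, the reverse of the order among the members. Zwint, a kinetochore protein gene, led at 432 TPM in replicate 2 and 482 TPM in replicate 1, which is above every member. It was followed by the checkpoint gene Bub3 at 160 TPM in replicate 2 and 178 TPM in replicate 1 and by Cks1b, a CDK-binding protein gene, at 138 TPM in replicate 2 and 145 TPM in replicate 1. Between the replicates 0 of 40 replication genes and 1 of 44 mitosis genes passed 0.32 in either direction. That gene was Wee1, the kinase that restrains CDK1, at 7.39 TPM in replicate 2 and 5.09 TPM in replicate 1, with a log2 ratio of 0.58.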

How the data were processed

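The authors quantified genes and transcripts against mm10 and GENCODE M4, per a text file supplied for each library. Aligner, tool versions, filters and use of strand: not given in the sources used here. The column names match those of RSEM. The authors deposited expected counts, which estimate the reads of each gene and may be fractional. TPM in the deposited tables corrects for length and sums to 1 common total, spike-ins included. FPKM in the deposited tables corrects for length and for reads aligned. Percent in the deposited transcript tables is each transcript's share of its gene's abundance. Posterior means and SDs were also deposited by the authors. The posterior SD of the count was over 5 reads in 4 members (Pcna, Gins2, Ccna2 and Ncapg) and 0 in 33.

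Symbols and positions came from GENCODE M21 of GRCm38, matched on the identifier without its version. Gene reads numbered 40215359 in replicate 2 and 31436613 in replicate 1. Expected counts were rounded, 0.5 was added, and TMM scaling came from edgeR 4.0.16 in R 4.3.3, with spike-ins left out. Tables and exact intervals were made in Python 3.11.15 with pandas 2.3.3 and scipy 1.17.1. With 1 library on each side, ratios were described and not tested. The ratio step was tested on simulated counts with a known depth ratio and counting error only. That simulation cannot show how the intervals fare with other variation between libraries. Levels per longest coding transcript divide the count by that length, shortened by the deposited difference between length and effective length. All genes of a library were then rescaled to its gene TPM total. A gene of unchanged length can therefore differ between the scales, as Mcm2 did, with a mean of 54.4 TPM deposited and 63.9 TPM here. Positions of words give their leftmost base, and there is no position 0.

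Members and lists were chosen with earlier results of these data known. Both libraries' values are named for the 2 highest and the lowest member of each role, every MCM and condensin subunit, members past a log2 ratio of 0.32, and members with an overlapping gene or pseudogene copy at 1 TPM or more; other members are also given. Of the other pathway lists the 3 highest are named; Wee1 was named after its value was seen. Alternatives were DESeq2 1.42.0 size factors, library and spike-in totals, other units, minimums, pseudocounts, folds, summaries, words and windows, and each library alone. The longest coding transcript length and leaving out members with an overlapping gene were added after seeing the data.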

Additional observations from a re-analysis of the deposited data

How the results depend on the processing

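The S phase minus G2/M difference stayed below 0 under each alternative, from -0.53 to -0.51 with 1 library left out. It was -0.51 with posterior means, -0.78 with means in place of medians, -0.35 among members at 10 TPM or more, and -0.27 with the longest coding transcript length, an alternative chosen after seeing the data. The median log2 ratio between replicates moved to -0.90 in S phase genes and -0.92 in G2/M genes with spike-in totals, to -0.070 in S phase genes and -0.092 in G2/M genes with TPM ratios, and to -0.044 in S phase genes with the mean. Members past a log2 ratio of 0.32 numbered 50 with spike-in totals and 1 at a mean count of at least 200. At 1.5-fold and 2-fold there were 0, and a stricter fold can only lower the count. Orc1 turned to -0.56 with spike-in totals. Spike-in totals lower the log2 ratio of every gene by the same amount, Orc1 included. The cause of the other shifts, and of the unlike spike-in shares, was not tested. The MCM spread was 3.17 to 3.40 with 1 library left out and 2.80 with the longest coding length. The condensin spread was 4.45 to 4.59 with 1 library left out, 4.41 with posterior means and 2.56 with the longest coding length. The 8-letter E2F words (a leading T) stood in 10 of 19 S phase genes (52.6%) and 3 of 20 G2/M genes (15%). The same held for 4.65% of detected protein-coding genes with a window. In the shorter window E2F words stood in 9 of 19 S phase genes (47.4%) and 3 of 20 G2/M genes (15%). There the share of detected protein-coding genes was 11.7%. All 50 members stayed detected with either library alone, and 45 to 46 reached 10 TPM. By FPKM 37 reached 10, and at 5 TPM 48 were detected. The leading transcript was kept by 40 of 40 members at 1 TPM, 28 of 28 at 20 TPM and 32 of 32 with a share of at least 50%. The 50% rule by itself favours a kept leading transcript. For these counts of members detected, at 10 or kept, the share over all genes at the same setting is not given here.

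No paired analysis was possible because there was 1 group and no second condition. With 2 libraries, SDs describe these libraries only, and members with few reads, such as Orc1, have wide intervals.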
